A study of Sus scrofa with 6 samples.

Results

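GABA-A receptor subunit genes were examined in the prefrontal cortex of 6 pigs (Sus scrofa) aged 3 months. The genes were chosen by name, as 7 of the 17201 genes listed in the count tables: the alpha subunit genes GABRA2, GABRA3, GABRA4 and GABRA5, the beta subunit genes GABRB1 and GABRB2, and the delta subunit gene GABRD. The labels give animals 391, 392 and 393 as exposed to valproic acid (VPA) at 75 mg/kg, an exposure that the series text places in early gestation, and animals 401, 402 and 408 as controls with no treatment (3 in each group), whose deposited files carry the tag WT. VPA is a drug against epilepsy and a histone deacetylase inhibitor, and the series presents the exposed animals as a model of autism. Each library is 1 animal, and no source used here gives litter, sex or breed. The question the design poses for these genes is whether their RNA level or their proportions differed between VPA and control cortex.

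GABA-A receptors are chloride channels opened by the transmitter GABA, and they carry most of the fast inhibition of the cortex. Each channel is a ring of subunits, usually alpha and beta subunits joined by a gamma or delta subunit, and the alpha subunit sets much of its drug response and its place on the neuron. Channels with gamma subunits mostly serve synapses, while those with delta, and many with alpha5, lie outside synapses and pass a steady inhibitory current. Other subunit genes, including those for gamma subunits, are treated here only as a group.

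Total counts ran from 16285517 to 17989032 per library. Before the libraries' normalisation factors are applied, 1 CPM, a normalised count scaled to library size, stood for 16.3 to 17.99 reads. The 7 genes had between 718 and 8833 counts in each library. Neuronal markers were high in every library (SNAP25 at 2451 to 2880 CPM, SLC17A7 at 999 to 1169 CPM and GAD1 at 323 to 368 CPM). VPA 393 stood apart in genes of striatal projection neurons, cells of the basal ganglia and not of the cortex. The summed level of the 15 such genes in the tables was 689 CPM there, 244 and 260.5 CPM in VPA 391 and VPA 392, and 205 to 236 CPM in controls. DRD2, a defining marker of those neurons, had 10.98 CPM in VPA 393, 1.65 and 1.86 CPM in the other VPA libraries, and at most 0.667 CPM in controls.

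Per length, the alpha5, alpha3 and beta2 genes had the highest levels of the 7. In controls the mean FPKM (the count scaled to gene length and library size) was 61.3 ± 1.56 for GABRA5, 59.9 ± 3.71 for GABRA3 and 56.9 ± 2.81 for GABRB2 (SD, n = 3). The delta gene GABRD followed at 41.1 ± 0.511 FPKM. GABRA2 had 16.1 ± 0.356 FPKM, GABRA4 11.7 ± 0.977 FPKM and GABRB1 9.79 ± 0.680 FPKM, so that the highest mean was 6.27 times the lowest. GABRA5 and GABRA3 cannot be ordered: GABRA5 was higher in 4 of 6 libraries, with a ratio of their FPKM between 0.990 and 1.10. GABRA3 exceeded GABRB2 in 5 of 6 libraries (ratio 0.992 to 1.12). GABRB2 over GABRD, GABRD over GABRA2, GABRA2 over GABRA4 and GABRA4 over GABRB1 kept their order in all 6 libraries. The gene lengths behind these FPKM, from 1867 bases for GABRD to 11228 bases for GABRA4, are those implied by the deposited values, and levels between genes depend on them.

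**Figure D1:**
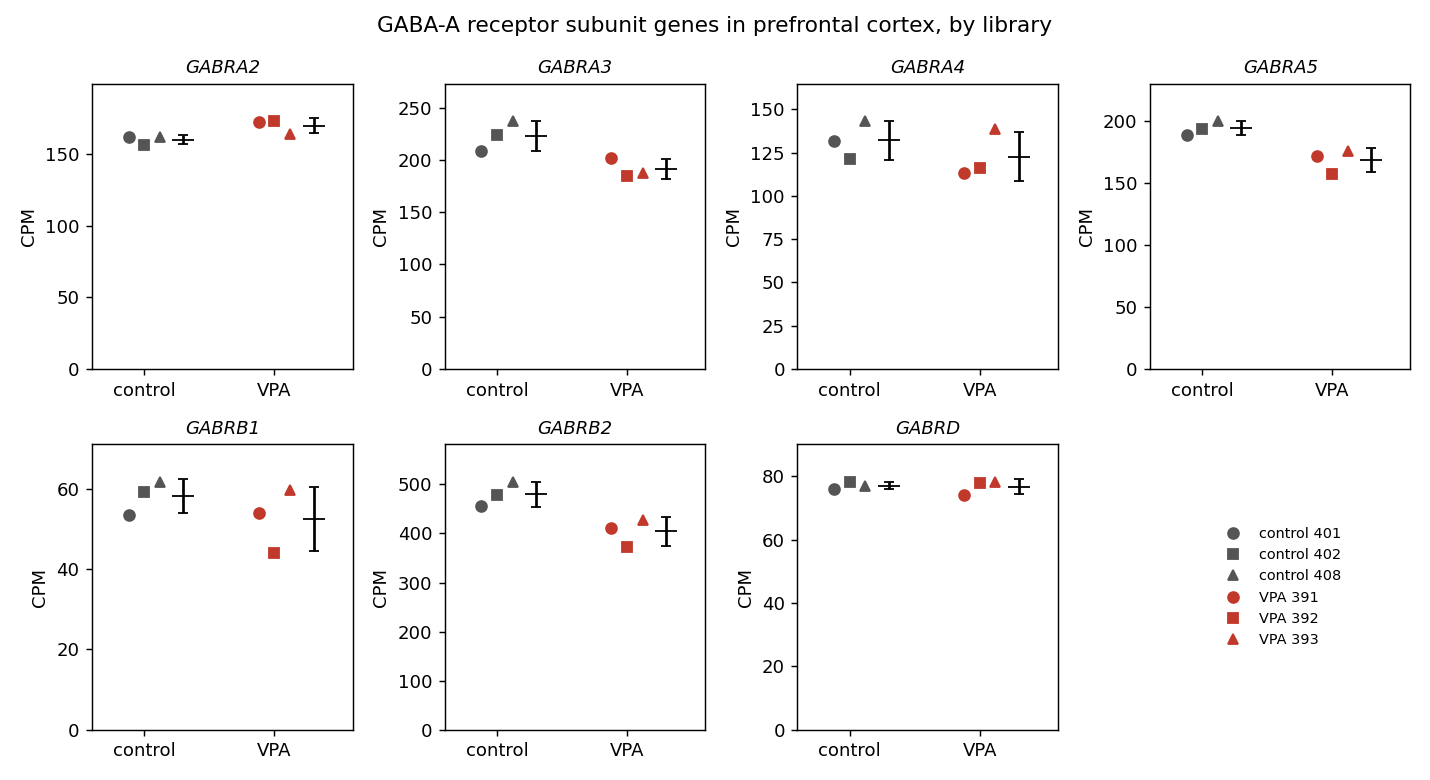
CPM of the 7 subunit genes (y axis, from 0) in control (grey) and VPA (red) libraries (x axis), 1 symbol per animal, with the group mean and SD (n = 3) beside the points. All 3 VPA libraries lie below the controls for GABRA3, GABRA5 and GABRB2 and above them for GABRA2, while the groups overlap for GABRA4, GABRB1 and GABRD.

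The alpha and beta subunit genes GABRA3, GABRA5 and GABRB2 had lower values in every VPA library than in any control, while GABRA2 had higher ones. None of the 7 genes passed an adjusted p of 0.05 over all 14373 genes in edgeR's quasi-likelihood test, against 0.362% of all genes tested. At an unadjusted p under 0.05 the same test gave 3 of the 7, all lower in VPA, where 7.45% of all genes were lower and 16.1% differed in either direction. DESeq2 placed the same 3, and no other of the 7, past an adjusted p of 0.05, against 3.64% of the genes to which it gave one (1.55% lower in VPA). Of the 7 fold changes 6 were negative, with a median of -0.14 on the log2 scale, where 49.5% of all genes were negative and the median was 0.0018. Groups did not overlap in 4 of the 7 genes, 3 of them lower and 1 higher in VPA, against 21.4% of all genes tested (10.7% lower and 10.7% higher).

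GABRB2 encodes a beta subunit found in the most widespread type of synaptic GABA-A receptor. It had 455, 479 and 506 CPM in controls 401, 402 and 408, and 412, 372 and 428 CPM in VPA 391, 392 and 393. Every VPA library was lower than every control, with VPA 392 the lowest. The group means were 480.0 ± 25.4 CPM in controls and 404 ± 28.9 CPM in VPA (SD, n = 3 each). The log2 fold change was -0.25 ± 0.063 (SE), a difference of -15.8% with a 95% interval of -23.5% to -7.30% (edgeR adjusted p = 0.10, DESeq2 adjusted p = 0.0084). Leaving out each library in turn gave log2 fold changes from -0.29 (without VPA 393) to -0.19 (without VPA 392).

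GABRA3 encodes a benzodiazepine-sensitive alpha subunit. It had 208, 223 and 237 CPM in controls 401, 402 and 408, and 202, 184 and 188 CPM in VPA 391, 392 and 393. The groups did not overlap, but VPA 391 and control 401 lay close together. The log2 fold change was -0.22 ± 0.059 (SE), or -14.1% with a 95% interval of -21.5% to -6.01% (edgeR adjusted p = 0.11, DESeq2 adjusted p = 0.034). It was -0.27 without control 401 and -0.17 without control 408.

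GABRA5 encodes the alpha subunit of a receptor class that lies largely outside synapses. Controls 401, 402 and 408 had 189, 194 and 200.3 CPM, and VPA 391, 392 and 393 had 172, 157 and 176 CPM. All 3 VPA libraries were lower than the lowest control. Its log2 fold change was -0.21 ± 0.054 (SE), or -13.3% with a 95% interval of -20.2% to -5.83% (edgeR adjusted p = 0.11, DESeq2 adjusted p = 0.041). For these 3 genes the adjusted p ran from 0.056 to 0.31 over the 15 other edgeR and limma settings, and the unadjusted p was at most 0.018.

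GABRA2 encodes an alpha subunit that is known for its place at the axon's initial segment and for the calming action of benzodiazepines. It had 162, 156 and 162 CPM in controls 401, 402 and 408, and 172, 173 and 164 CPM in VPA 391, 392 and 393. All VPA libraries were above all controls, with VPA 393 closest to them. The log2 fold change was 0.09 ± 0.046 (SE), or 6.25% with a 95% interval of -1.02% to 14.1%, which includes 0 (edgeR adjusted p = 0.39, DESeq2 adjusted p = 0.59). It was 0.06 to 0.11 with 1 library left out.

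GABRA4, GABRB1 and GABRD had overlapping groups. GABRA4 encodes the alpha subunit that often pairs with delta and that classical benzodiazepines do not act on. It had 131, 121 and 143 CPM in controls 401, 402 and 408, and 113, 116 and 139 CPM in VPA 391, 392 and 393. VPA 393, the library with high striatal genes, was also the high one of the VPA group for GABRA4. Control 408, without high striatal genes, was higher still. The log2 fold change was -0.11 ± 0.084 (SE, 95% interval -18.4% to 5.78%, edgeR adjusted p = 0.58), and -0.20 without VPA 393 (unadjusted p = 0.019). Without any other single library it ran from -0.17 (without control 402) to -0.04 (without control 408), with edgeR unadjusted p from 0.083 to 0.64. Whether the striatal signal bears on the GABRA4 values was not tested.

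GABRB1, the less abundant of the 2 beta genes here, varied most between VPA animals. It had 53.4, 59.1 and 61.8 CPM in controls 401, 402 and 408, and 53.9, 43.9 and 59.7 CPM in VPA 391, 392 and 393. VPA 392 alone lay below all controls. The log2 fold change of -0.14 ± 0.11 (SE, 95% interval -23.1% to 6.41%, edgeR adjusted p = 0.54) became -0.03 without VPA 392 and -0.25 without VPA 393 (unadjusted p = 0.037).

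GABRD, the delta gene, whose channels respond strongly to neurosteroids, was nearly level. It had 75.9, 78.3 and 76.8 CPM in controls 401, 402 and 408, and 74.0, 77.8 and 78.2 CPM in VPA 391, 392 and 393. Its fold change was -0.0066 ± 0.054 (SE) on the log2 scale, with a 95% interval of -8.38% to 8.16% (edgeR adjusted p = 0.97). It turned to 0.0063 when counts were scaled by library size only and to 0.0054 with limma on log2(FPKM + 1).

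**Figure D2:**
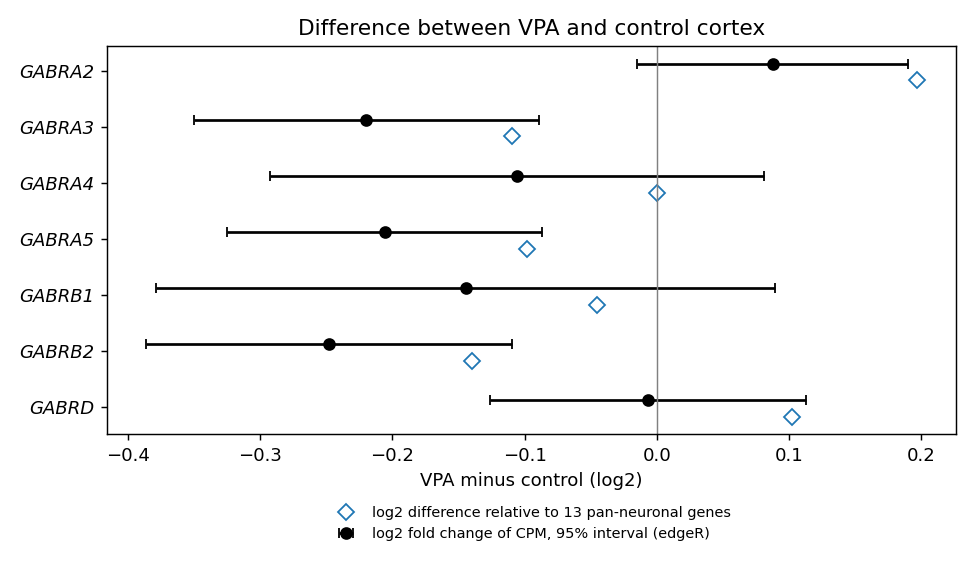
Difference between VPA and control (x axis, log2) for each gene (y axis), as the edgeR log2 fold change with its 95% interval (black) and as the difference relative to 13 pan-neuronal genes (open diamonds). The intervals of GABRA3, GABRA5 and GABRB2 lie below 0 and those of the other 4 genes span it, and each diamond lies to the right of its circle.

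A sum of 13 pan-neuronal genes was also lower in the VPA libraries. It was 13966 to 14665 CPM in VPA and 15262 to 15593 CPM in controls, with no overlap. Of these 13 genes, 11 had negative fold changes (median -0.10), and 1, the neuronal surface gene THY1, passed edgeR's test over all genes as lower. In bulk tissue fewer neurons and less RNA per neuron cannot be told apart. Set against that sum in the same library, GABRB2 stood at 28.2 ± 2.42 per 1000 pan-neuronal counts in VPA and 31.0 ± 1.32 in controls (SD, n = 3 each). Its difference of -0.14 on the log2 scale had overlapping groups (exact two-sided permutation p = 0.20). The overlap was between VPA 393 and control 401, and leaving out either library removed it. The difference was -0.20 without VPA 393, -0.17 without control 401 and -0.08 without VPA 392. The corresponding differences were -0.11 for GABRA3 (exact permutation p = 0.20) and -0.10 for GABRA5 (exact permutation p = 0.30), again with overlap. That of GABRA5 was -0.15 without VPA 393, with no overlap, and -0.05 without VPA 392. That of GABRA3 was -0.15 without control 401, with no overlap, and -0.07 without control 408. Set against glutamatergic genes instead, GABRA3 differed by -0.10 with no overlap, while GABRA5 and GABRB2 still overlapped. The exact two-sided permutation p of GABRA3 was then 0.10, the smallest this design can give. The pan-neuronal sum itself differed by -0.11 on the log2 scale.

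The same scale put GABRA2 and GABRD above the controls. GABRA2 stood at 11.8 ± 0.157 per 1000 pan-neuronal counts in VPA and 10.3 ± 0.275 in controls, a log2 difference of 0.20 with no overlap. GABRD stood at 5.35 ± 0.281 and 4.98 ± 0.0544, a log2 difference of 0.10, also with no overlap. Its groups did overlap when it was set against glutamatergic genes instead (0.11). They also overlapped against the mean log2 CPM of the pan-neuronal list (0.08). Relative to the pan-neuronal sum, GABRA2 and GABRD each have an exact two-sided permutation p of 0.10, the smallest that 3 against 3 libraries can give (adjusted over the 7 genes, 0.35). GABRA4 was at 0.00024 and GABRB1 at -0.05, both with overlapping groups.

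**Figure D3:**
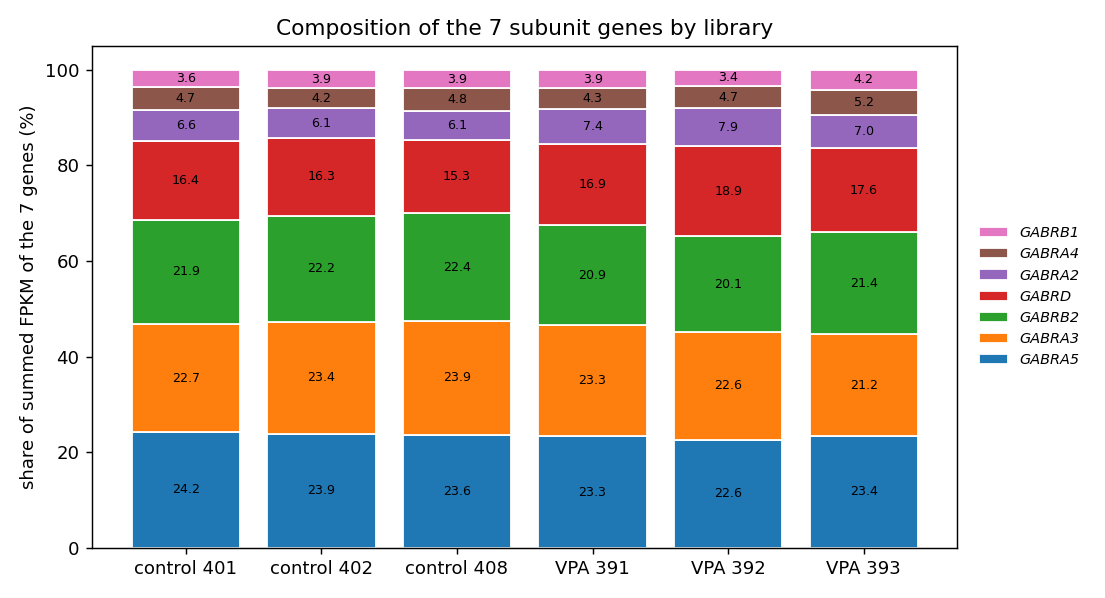
Share of each gene (stacked bars, percent) in the summed FPKM of the 7 genes for each library (x axis), with the values printed in the bars. The GABRA2 and GABRD segments are larger in all 3 VPA libraries than in any control, and those of GABRB2 and GABRA5 are smaller.

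Within the 7 genes the FPKM shares shifted by at most 1.77 percentage points. The summed FPKM of the 7 was 248 to 267 in controls and 222 to 242 in VPA. GABRD made up 16.4%, 16.3% and 15.3% of that sum in controls 401, 402 and 408, and 16.9%, 18.9% and 17.6% in VPA 391, 392 and 393. Its own mean FPKM was 41.1 in controls and 41.2 in VPA, while the sum was lower in VPA. GABRA2 made up 6.27 ± 0.271% in controls and 7.44 ± 0.480% in VPA (SD, n = 3 each). The share of GABRB2 was 22.2 ± 0.296% in controls and 20.8 ± 0.681% in VPA, and that of GABRA5 was 23.9 ± 0.264% and 23.1 ± 0.455%. These 4 shares had groups that did not overlap, each with an exact two-sided permutation p of 0.10 (adjusted over the 7 genes, 0.18), which cannot pass 0.05 in this design. The shares are parts of 1 sum and depend on each other, and no such count was made for other sets of genes. The shares of GABRA3, GABRA4 and GABRB1 overlapped between groups, and the difference of -0.96 percentage points for GABRA3 was -0.40 without VPA 393. Shares depend on the unit: of the summed CPM, which is not scaled to length, GABRA2 differed by 2.27, GABRB2 by -2.18, GABRA5 by -0.48 and GABRD by 0.65 percentage points. The directions were those of the FPKM shares, but GABRA2 and not GABRD had the largest difference. Genes of channels that lie largely outside synapses (GABRA4, GABRA5 and GABRD) together made up 44.5% to 46.1% in VPA and 43.7% to 45.3% in controls, with overlap. The 7 genes held 52.7% to 54.1% of the FPKM summed over all 19 subunit genes in the tables, with overlapping groups.

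Among the 4 alpha genes the balance of alpha2 against alpha3 and alpha5 did not overlap between groups. GABRA2 made up 10.4% to 11.3% of the 4 alpha genes' FPKM in controls and 12.3% to 13.7% in VPA. The ratio of GABRA5 to GABRA2 in FPKM was 3.67, 3.89 and 3.88 in controls 401, 402 and 408, and 3.13, 2.85 and 3.36 in VPA 391, 392 and 393. That of GABRA3 to GABRA2 was 3.44 to 3.92 in controls and 2.85 to 3.13 in VPA. The ratio of GABRA5 to GABRA3 stayed near 1 in both groups (1.02 ± 0.0387 in controls and 1.03 ± 0.0588 in VPA). Of all 21 pairs of the 7 genes, 6 had ratios that did not overlap between groups: GABRA2 and GABRD, each against GABRA3, GABRA5 and GABRB2. None could pass a test here (exact two-sided permutation p = 0.10 for each, adjusted over the 21 pairs, 0.35). The 6 pairs share genes, so they are not separate results. Of single genes, 21.4% of all tested did not overlap, and the share over pairs of all genes was not computed. GABRA2 against GABRD differed by 0.09 on the log2 scale, with overlap.

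**Figure D4:**
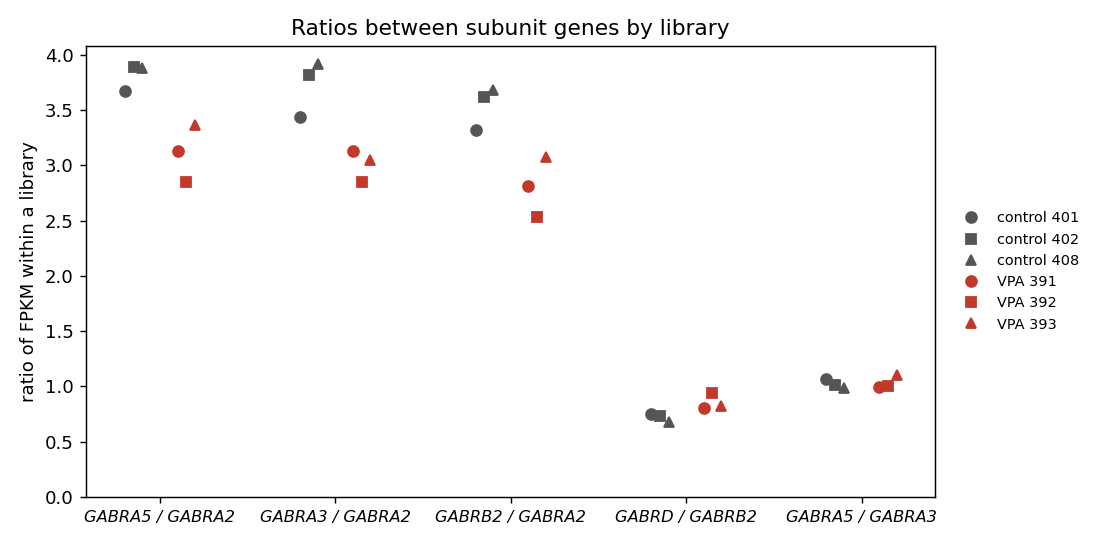
Ratio of FPKM between pairs of subunit genes (y axis, from 0) in each library, controls in grey and VPA in red, chosen from the 21 pairs after their values were seen. The first 4 ratios do not overlap between groups, while GABRA5 over GABRA3 lies between 0.990 and 1.10 in all 6 libraries.

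GABRA5 and GABRB2 followed the same order across the 6 libraries. Pearson's r of their log2 CPM was 0.99, and GABRA3 had r = 0.91 with GABRB2 and r = 0.90 with GABRA5. GABRA2 had negative r with each of the other 6 genes, from -0.44 with GABRD to -0.86 with GABRA5, and r of GABRD with the genes other than GABRA2 lay between -0.09 and 0.33. These 6 points share the group difference and the library's scaling, so the coefficients are descriptions. By Pearson's r with the mean standardised level of the 7 genes over 6 libraries, the genes most alike among 11648 at a mean of at least 5 CPM were SYNJ1 (r = 0.997), CDH11 (r = 0.997) and IFFO2 (r = 0.994).

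Other genes of the receptor's life cycle showed smaller differences. Of 12 further subunit genes 8 were tested, 5 with negative and 3 with positive fold changes (median -0.16). None passed edgeR's adjusted threshold, and 4 were lower at an unadjusted p under 0.05. Of 28 genes for clustering and trafficking of the receptor 25 were tested, 18 of them negative (median -0.06). In edgeR 0 had an adjusted p under 0.05, while at an unadjusted p under 0.05 there were 6 lower and 0 higher. ARFGEF2, a vesicle traffic factor that binds beta subunits, had a log2 fold change of -0.16 ± 0.060 (SE, edgeR adjusted p = 0.23). GPHN, the gene of the scaffold gephyrin, named after its values were seen, stood at 0.03 ± 0.070 (edgeR adjusted p = 0.88).

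Chloride transport sets the direction of the current through these channels. Of its 7 genes 0 passed in edgeR, with 1 higher and 1 lower at an unadjusted p under 0.05 (median 0.0097). The chloride channel gene CLCN2 had a log2 fold change of 0.29 ± 0.091 (edgeR adjusted p = 0.15). SLC12A5, the neuronal chloride exporter gene, had 456 CPM in VPA and 493 CPM in controls (-0.11 ± 0.047, edgeR adjusted p = 0.28).

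Some marker lists of other cells also differed between the groups. Glutamatergic genes had 11 of 15 negative fold changes (median -0.16), with sums of 5396 to 5764 CPM in VPA and 5876 to 6215 CPM in controls, and 1 of them, SV2B, passed edgeR's test as lower. GABAergic interneuron genes had 13 of 17 positive fold changes (median 0.13), with sums of 2016 to 2114 CPM and 1984 to 2013 CPM. Oligodendrocyte genes had 15 of 16 positive (median 0.34), with overlapping sums of 18265 to 20722 CPM in VPA and 14177 to 18786 CPM in controls. Precursor genes had 9 of 10 positive (median 0.25), with sums of 1011 to 1183 CPM in VPA and 825 to 966 CPM in controls. Astrocyte genes had 9 of 11 positive (median 0.18), with overlapping sums of 12253 to 13943 CPM and 11726 to 12457 CPM. Striatal projection neuron genes had 11 of 12 positive (median 1.04). Their sums were 244, 260.5 and 689 CPM in VPA 391, 392 and 393, and 205 to 236 CPM in controls. Microglia genes had 7 of 10 positive (median 0.06), with overlapping sums of 517 to 522 CPM in VPA and 425 to 527 CPM in controls. Endothelial and mural genes had 8 of 10 positive (median 0.05), with overlapping sums of 598 to 771 CPM in VPA and 612 to 655 CPM in controls. The part of these lists in the subunit values was not tested, beyond the values set against pan-neuronal genes.

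**Figure D5:**
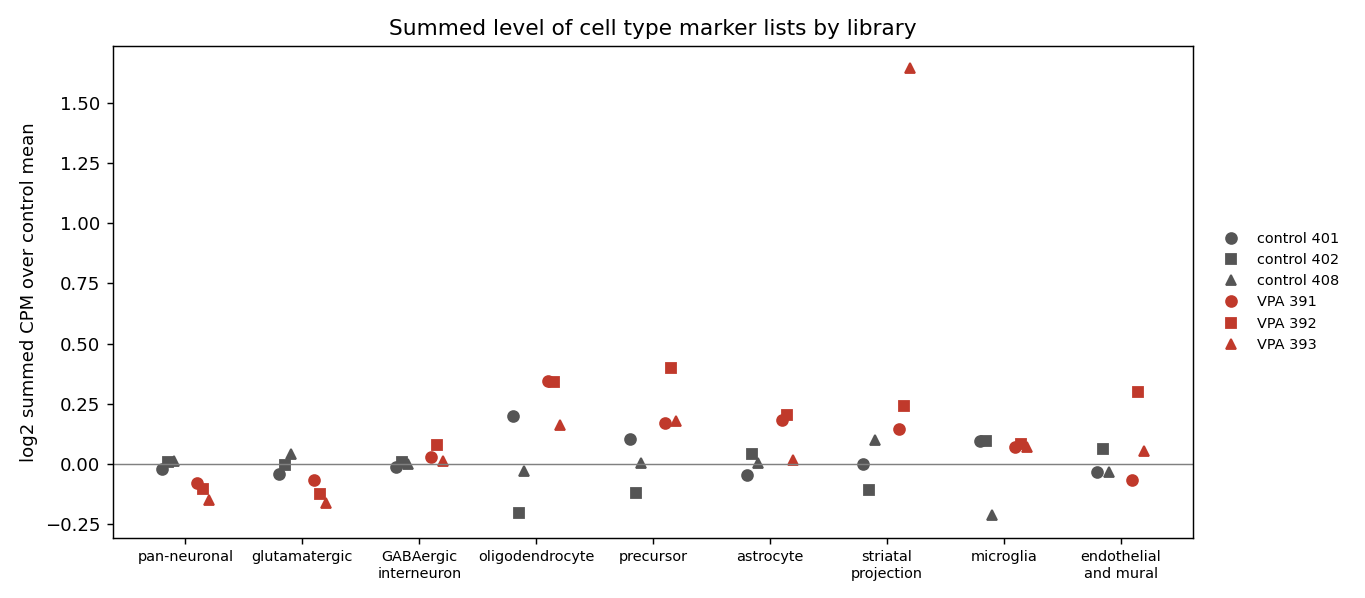
Summed CPM of each marker list in each library as log2 over the control mean (y axis), controls in grey and VPA in red. The pan-neuronal sums of VPA lie between -0.15 and -0.08, and the striatal sum of VPA 393 stands at 1.64, away from all other libraries.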

How the data were processed

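Each library has 2 deposited tables, of raw counts and of FPKM by gene, as the authors made them (per the file headers). Per the labels' protocols, RNA was extracted with TRIzol and a VAHTS Universal V6 kit made the libraries. No source used here gives the aligner, counter, strandedness, build or annotation, so no coordinates are printed. All 97071 nonzero FPKM values equalled the count over the file's total and 1 gene length shared by all libraries (within a relative 0.001); the 2 units are therefore 1 measurement. Every pair of libraries differed by more than sampling noise (chi-square per degree of freedom 5.74 to 12.8 over 15 pairs).

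The counts were tested with edgeR 4.0.16 under R 4.3.3. The steps were filterByExpr (14373 genes kept, 2828 not tested), TMM factors, and the quasi-likelihood test without covariates, followed by Benjamini-Hochberg adjustment over all genes tested, with a threshold of 0.05. CPM are scaled by TMM, and SE and 95% intervals come from the F statistic. The p-values measure the spread between these animals, which may share litters. Shares, ratios and values relative to pan-neuronal genes were compared with exact permutation tests. The functions were tested on simulated data. Alternatives were other scaling and filters, DESeq2 1.42.0, limma 3.58.1, EIF1AY as a covariate, and each library left out. Limma was run as voom, or by its trend method on log2 FPKM (pseudocount 1 or 0.1) where the mean FPKM was 0.5 or more. EIF1AY was above 3 counts in 4 libraries, 2 VPA and 2 control. The genes and lists were chosen with earlier results of these data known. All 7 genes are named, and from each list of receptor-related genes those past the test or else the 2 with the lowest p. Some genes that this rule selects are not reported here.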

Additional observations from a re-analysis of the deposited data

How the results depend on the processing

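Of the 7 genes 0 passed in edgeR with all libraries, and 3 passed with DESeq2; the count was 0 under every other setting, those without 1 library included (0 to 0). Over all genes the count of 52 went to 141 with no filter, 444 with DESeq2, 30 with limma-voom and 2 with limma on log2(FPKM + 1) or log2(FPKM + 0.1). It was between 0 (without VPA 391 or VPA 392) and 66 (without control 401) when 1 library was left out, 1 without VPA 393, 5 without control 402 and 2 without control 408. The cause was not tested. The 0.0066 deficit of GABRD turned to 0.0063 with library size only, to 0.0054 with limma on log2(FPKM + 1) and to 0.0055 on log2(FPKM + 0.1), and ran from -0.023 to 0.011 without 1 library. The other 6 genes kept the direction of their fold changes under all 16 alternatives. Without 1 library, the GABRA4 share difference ran from -0.068 to 0.376 percentage points and that of GABRB1 from -0.181 to 0.257. Relative to pan-neuronal genes, GABRA4 ran from -0.111 to 0.073, GABRB1 from -0.163 to 0.081, GABRB2 from -0.202 to -0.079, GABRA5 from -0.150 to -0.046 and GABRA3 from -0.148 to -0.069 on the log2 scale without 1 library, and GABRA4 was at -0.019 against the mean log2 CPM of that list. No paired analysis was possible because the groups share no animal number. The counting error of each gene, from its mean count over the 6 libraries, was 1.14% to 3.23%.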

Other observations

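The spread between animals differed among the subunit genes. The coefficient of variation of GABRB1 was 15.2% in VPA and 7.33% in controls, where counting alone would give 3.23%. GABRA4 had 11.4% and 8.38%, against 2.13% from counting. GABRA2 had 2.92% and 1.98%, against 1.88%, and GABRD 3.04% and 1.55%, against 2.75%. With 3 animals a group these values are descriptions.

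In the RefSeq table of the Sscrofa11.1 assembly GABRA2, GABRA4 and GABRB1 are neighbours, with 1 other protein-coding gene between GABRA2 and GABRA4 and 0 between GABRA4 and GABRB1. Across the 6 libraries GABRA4 and GABRB1 had r = 0.65, while GABRA2 had r = -0.53 with GABRA4 and -0.71 with GABRB1. The ratio of GABRA2 to each of these neighbours overlapped between groups.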
